A study of Mus musculus with 6 samples.

Results

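The genes described here are regulators of the NF-kB and C/EBP transcription factor pathways in C2C12 cells, a mouse line of myoblasts, which are the precursors of skeletal muscle fibres. The list held 10 genes chosen by symbol, and 8 of them were in the deposited tables of 14548 genes, namely *Nfkb1*, *Nfkb2*, *Rela*, *Relb*, *Nfkbia*, *Tnfaip3*, *Cebpa* and *Cebpb*. *Nfkbiz* and *Cebpd* were not analysed here. All 8 genes had 1 FPKM or more (fragments on a gene, per length of its exons and per depth of the library) in at least 1 library, so all 8 were tested. There were 3 libraries labelled WT and 3 labelled MSTN-KO, all of C2C12 myoblasts grown in DMEM with fetal bovine serum, and the labels name no treatment. The MSTN-KO cells were the line C11, in which exon 3 of *Mstn* was targeted by CRISPR/Cas9 with the plasmid px330. *Mstn* encodes myostatin, a secreted factor that restrains muscle growth. The strain is given as C11 for every library in the labels, WT ones included, and the samples were grouped by genotype.

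All MSTN-KO libraries come from this line, so loss of MSTN cannot be told apart from other differences between the line and the WT cells. No label says that the replicates were separate cultures, so p-values measure only the spread between these libraries, which may be technical. *Mstn* RNA lay between 0 and 0.0399 FPKM in the WT libraries and between 0.0269 and 0.0586 FPKM in the MSTN-KO libraries, too low to check the labels. The FPKM values summed to 723705 to 764524 in WT and to 856314 to 999579 in MSTN-KO. Absolute depth is unknown, and relative depth, estimated from genes under 0.1 FPKM, ran from 0.776 to 1 with WT replicate 2 as the reference. Myoblast markers summed to 972 to 1383 FPKM in WT and to 613 to 755 FPKM in MSTN-KO. Of the 7 markers tested, 3 were called lower, 1 higher and 3 neither. *Myod1*, which commits cells to the muscle lineage, was between 90.8 and 167 FPKM in all 6 libraries.

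NF-kB is a family of dimeric transcription factors. *Rela* and *Relb* encode subunits with an activation domain, while *Nfkb1* and *Nfkb2* encode precursors that are cut into the DNA-binding partners of the canonical and the non-canonical pathway. IkB proteins such as the product of *Nfkbia* hold the dimers in the cytoplasm until the IKK complex marks them for degradation, and the ubiquitin-editing enzyme A20, the product of *Tnfaip3*, dampens the signal upstream of IKK. *Nfkbia*, *Tnfaip3*, *Nfkb1*, *Nfkb2* and *Relb* are themselves classical NF-kB targets, which makes their RNA part of a feedback loop. C/EBP alpha and C/EBP beta are leucine zipper factors known for adipocyte and myeloid differentiation and for acute-phase and inflammatory genes. In myoblasts C/EBP beta is known to be high in proliferating cells and to fall as they differentiate.

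The promoters of 4 of the regulators are shown. *Cebpa* and *Cebpb* were the only regulators called higher in MSTN-KO. *Nfkbia* and *Nfkb2* were not called and are shown as feedback genes whose promoters hold a kB match. Each window runs from 250 bases before to 50 bases after a RefSeq start site in GRCm38.p6 and is printed from 5′ to 3′ on the strand of the gene. Capitals mark matches on either strand to the kB motif GGGNNTTNCC, to the C/EBP motif TTGCNNAA or to the TATA motif TATAAA.
Cebpa (chr7:35119043-35119342, plus strand): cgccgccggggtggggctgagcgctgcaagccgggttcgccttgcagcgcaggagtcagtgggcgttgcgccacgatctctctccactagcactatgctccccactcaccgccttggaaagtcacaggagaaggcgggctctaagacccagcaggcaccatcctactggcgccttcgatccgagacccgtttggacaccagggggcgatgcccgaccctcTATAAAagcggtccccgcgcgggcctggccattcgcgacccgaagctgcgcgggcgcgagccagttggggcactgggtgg
Cebpb (chr2:167688665-167688964, plus strand): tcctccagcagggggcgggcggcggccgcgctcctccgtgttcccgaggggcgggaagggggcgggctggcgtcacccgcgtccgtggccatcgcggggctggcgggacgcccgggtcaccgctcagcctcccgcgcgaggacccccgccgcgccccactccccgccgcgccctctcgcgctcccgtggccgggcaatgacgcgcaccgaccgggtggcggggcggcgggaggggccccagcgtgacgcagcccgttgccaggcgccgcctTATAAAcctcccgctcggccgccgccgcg
Nfkbia (chr12:55492598-55492897, minus strand): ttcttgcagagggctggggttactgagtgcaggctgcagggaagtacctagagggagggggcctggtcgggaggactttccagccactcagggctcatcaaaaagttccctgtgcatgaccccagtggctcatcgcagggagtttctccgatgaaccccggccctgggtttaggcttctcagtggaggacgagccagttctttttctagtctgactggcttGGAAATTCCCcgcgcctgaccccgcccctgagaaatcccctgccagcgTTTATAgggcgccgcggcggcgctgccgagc
Nfkb2 (chr19:46304487-46304786, plus strand): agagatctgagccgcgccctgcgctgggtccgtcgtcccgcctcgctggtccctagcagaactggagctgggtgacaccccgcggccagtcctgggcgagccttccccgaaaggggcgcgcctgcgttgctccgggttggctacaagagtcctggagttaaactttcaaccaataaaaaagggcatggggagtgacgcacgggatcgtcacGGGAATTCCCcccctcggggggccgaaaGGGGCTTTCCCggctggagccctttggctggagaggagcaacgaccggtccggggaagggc

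RefSeq windows were found for 6 of the 8 regulators, 9 windows in all. *Nfkb1* and *Relb* had none. A kB match lay in windows of 3 regulators, *Nfkb2*, *Nfkbia* and *Tnfaip3*, while 4.79% of 32851 mouse promoter windows of the same length hold one. In *Nfkbia* it lay 29 bases before the start. *Nfkb2* had a match 39 bases before its first start and 2 overlapping matches 11 and 10 bases before it, which share most of their letters. Its other windows overlap each other and share a further match. In *Tnfaip3* the match lay 12 bases before the start. No regulator had a C/EBP match, against 10.8% of all windows, and 4 had a TATA match, against 13.6%. The TATA match of *Cebpa*, 30 bases before its start, is the capital run in its window. Those of *Cebpb* and *Nfkbia* lay 21 and 19 bases after the start, and that of *Tnfaip3* lay 225 bases before it. These matches describe the letters of the windows and do not show binding. With 10 bases on either side, the match of *Tnfaip3* and the matches nearest the start of *Cxcl1*, a chemokine gene described below, read as follows, with the motif in capitals.
Tnfaip3 (chr10:19015403-19015432, minus strand): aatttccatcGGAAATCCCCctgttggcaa
Cxcl1, 71 bases before the start (chr5:90891164-90891193, plus strand): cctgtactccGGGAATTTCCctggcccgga
Cxcl1, 89 bases before the start (chr5:90891146-90891175, plus strand): ccggttgcagGGAAACACCCtgtactccgg

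The question was whether RNA of these regulators differed between MSTN-KO and WT cells. *Cebpa* and *Cebpb* were higher in MSTN-KO, with means 3.10 and 2.08 times those of WT, and none of the 8 genes was called lower. The genes for the NF-kB subunits and inhibitors had log2 fold changes between -0.24 and 0.39, and none of these 6 passed the test. Calls were made at a Benjamini-Hochberg adjusted p under 0.05 from limma, fitted on log2(FPKM + 1) over the 10837 genes that reached 1 FPKM in any library. Of these genes 8.78% were called higher and 8.96% lower, 17.7% in either direction. The study's methods define differentially expressed genes (DEGs) by a p below 0.05 without adjustment and by a change of more than 1 on the log2 scale. By these criteria *Cebpa* and *Cebpb* were upregulated and no regulator was downregulated. Over all genes 1.21% were upregulated and 2.3% downregulated DEGs. The median log2 fold change was 0.19 over the 8 regulators, with 5 above and 3 below 0, and -0.00078 over all genes tested.

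For *Cebpa* and *Nfkbia* every MSTN-KO library lay above every WT library, for *Tnfaip3* every one lay below, and for the other 5 genes the groups overlapped. Over all genes tested the groups did not overlap for 37.4%, with MSTN-KO higher for 19.3% and lower for 18.1%. Scaling each library to a summed FPKM of 1000000, the only scaling that moved the median of all genes by more than 0.1, shifted it by -0.26 and gave 350 genes higher and 2367 lower, against 952 and 971 without it. Under that scaling *Relb* turned negative at -0.16, but relative to the shift it stayed at 0.096.

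**Figure D1:**
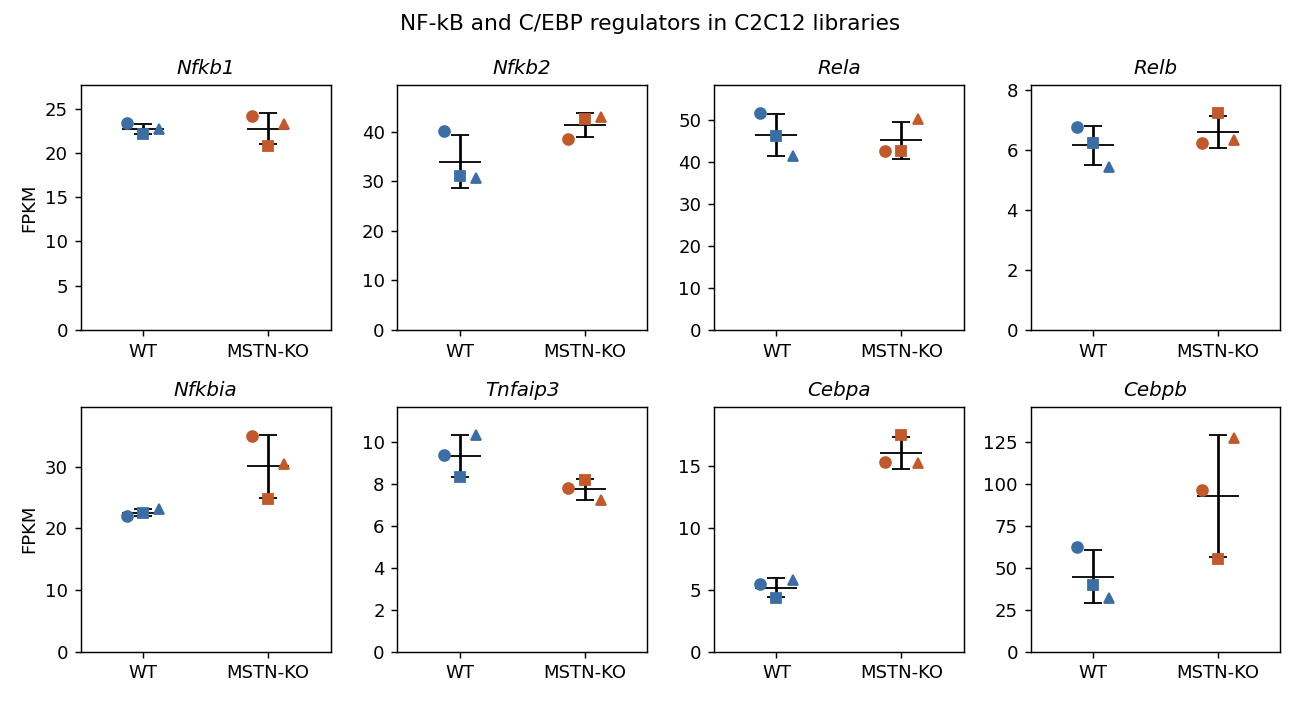
FPKM of the 8 regulators (vertical axes, each from 0) in the WT and MSTN-KO libraries. Circles, squares and triangles are replicates 1, 2 and 3, the horizontal line is the mean and the bars are the SD (n = 3). The *Cebpa* values of the groups lie far apart (4.30 to 5.76 against 15.2 to 17.5), while for *Cebpb* WT replicate 1 at 62.5 lies above MSTN-KO replicate 2 at 55.0.

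*Rela* encodes the main activating subunit of canonical NF-kB. It had 51.7, 46.1 and 41.5 FPKM in WT replicates 1, 2 and 3 and 42.7, 42.7 and 50.2 FPKM in the MSTN-KO group. The ranges overlapped, with a log2 fold change of -0.038 (standard error 0.13, 95% interval -0.32 to 0.25, limma adjusted p = 0.866). *Nfkb1*, its usual partner, had 23.3, 22.2 and 22.7 FPKM in WT and 24.1, 20.8 and 23.3 FPKM in MSTN-KO. This was the most even gene of the list, at 22.7 ± 0.581 FPKM (SD, n = 3) in WT and 22.7 ± 1.75 FPKM in MSTN-KO, and its log2 fold change was -0.0018 (95% interval -0.27 to 0.27, limma adjusted p = 0.994). The sign of both differences turned when single libraries were left out, and both intervals reach about as far above 0 as below it.

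*Nfkb2* and *Relb* encode the pair of the non-canonical pathway. *Nfkb2* had 40.1, 31.0 and 30.8 FPKM in WT and 38.6, 42.6 and 42.9 FPKM in MSTN-KO. WT replicate 1 lay above MSTN-KO replicate 1, and the other WT libraries lay below all MSTN-KO libraries. The means were 33.9 ± 5.31 and 41.4 ± 2.40 FPKM, and the log2 fold change of 0.29 (standard error 0.14, 95% interval -0.0089 to 0.58, limma adjusted p = 0.165) did not pass the test. *Nfkb2* shares 299 exonic bases with *Psd* on the opposite strand, which was at 1.47 to 2.37 FPKM in the 6 libraries. *Relb* was low, at 6.76, 6.23 and 5.44 FPKM in WT and 6.24, 7.22 and 6.34 FPKM in MSTN-KO. Its groups overlapped, and its log2 fold change was 0.091 (95% interval -0.23 to 0.41, limma adjusted p = 0.703).

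*Nfkbia* encodes IkB alpha, which binds RELA-containing dimers and is rebuilt after each round of signalling. It had 22.0, 22.4 and 23.1 FPKM in WT and 35.0, 24.8 and 30.4 FPKM in MSTN-KO. All MSTN-KO values were higher, but their SD of 5.10 FPKM was much wider than the 0.550 FPKM of WT. The means, 30.0 FPKM against 22.5 FPKM, gave a log2 fold change of 0.39 (standard error 0.14, 95% interval 0.081 to 0.70), and the limma adjusted p of 0.0761 did not pass. Without MSTN-KO replicate 2, the lowest of its group, the value was 0.52 and passed (limma adjusted p = 0.0219).

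*Tnfaip3* encodes A20, the other feedback inhibitor. Its values were 9.38, 8.31 and 10.3 FPKM in WT and 7.80, 8.20 and 7.21 FPKM in MSTN-KO. Every MSTN-KO value was lower, although replicate 2 of either group lay close to the other. The log2 fold change was -0.24 (standard error 0.14, 95% interval -0.55 to 0.069) and did not pass the test (limma adjusted p = 0.263). It passed only after scaling to 1000000 (-0.50, limma adjusted p = 0.0396), and relative to the shift of all genes under that scaling it was -0.25. The feedback inhibitors thus lay on opposite sides of 0, and neither was called.

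**Figure D2:**
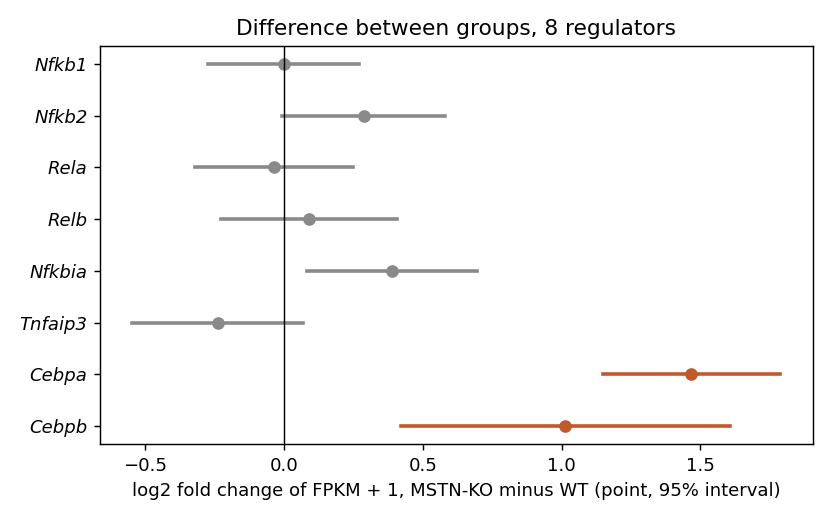
Log2 fold change of FPKM + 1 (horizontal axis, MSTN-KO minus WT) of the 8 regulators, with points for the limma estimates and lines for their 95% intervals. Genes called at an adjusted p under 0.05 are orange and the others grey. The intervals of *Cebpa* (1.15 to 1.79) and *Cebpb* (0.42 to 1.61) lie above those of *Rela*, *Nfkb1* and *Tnfaip3*.

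*Cebpa* encodes C/EBP alpha, a factor that drives adipocyte and myeloid differentiation and can stop cell division. It is a gene of 1 exon on chromosome 7, from 35119293 to 35121928 in the GENCODE M21 annotation of GRCm38. It had 5.44, 4.30 and 5.76 FPKM in WT and 15.3, 17.5 and 15.2 FPKM in MSTN-KO. The lowest MSTN-KO value was far above the highest WT value. The means were 5.17 ± 0.764 and 16.0 ± 1.28 FPKM (SD, n = 3), with a log2 fold change of 1.47 (standard error 0.15, 95% interval 1.15 to 1.79, limma adjusted p = 2.33e-05). The call held under all 16 alternatives, at 1.24 to 1.62 with other processing and at 1.36 to 1.54 with each library left out.

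*Cebpb* encodes C/EBP beta. It also has 1 exon, on chromosome 2 from 167688915 to 167690418. Its values were 62.5, 40.0 and 31.7 FPKM in WT and 96.3, 55.0 and 127 FPKM in MSTN-KO. The spread was wide in both groups, and WT replicate 1 lay above MSTN-KO replicate 2. The means were 44.7 ± 15.9 and 92.9 ± 36.3 FPKM (SD, n = 3), with a log2 fold change of 1.01 (standard error 0.27, 95% interval 0.42 to 1.61, limma adjusted p = 0.0226). The call depended on single libraries. It was lost without WT replicate 2 (0.96, limma adjusted p = 0.0515), without WT replicate 3 (0.80, 0.0751) and without MSTN-KO replicate 3 (0.75, 0.133). It was also lost without the filter on low values (limma adjusted p = 0.103) and after scaling to 1000000 (0.73, limma adjusted p = 0.0803). *Cebpb* shares 312 of its 1504 exonic bases with *Tmem189* on the opposite strand, and the sources used here do not say whether strand was used in counting. *Tmem189* was at 193 to 212 FPKM in WT and 199 to 255 FPKM in MSTN-KO (log2 fold change 0.14, limma adjusted p = 0.474), and its part in the *Cebpb* values was not tested.

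**Figure D3:**
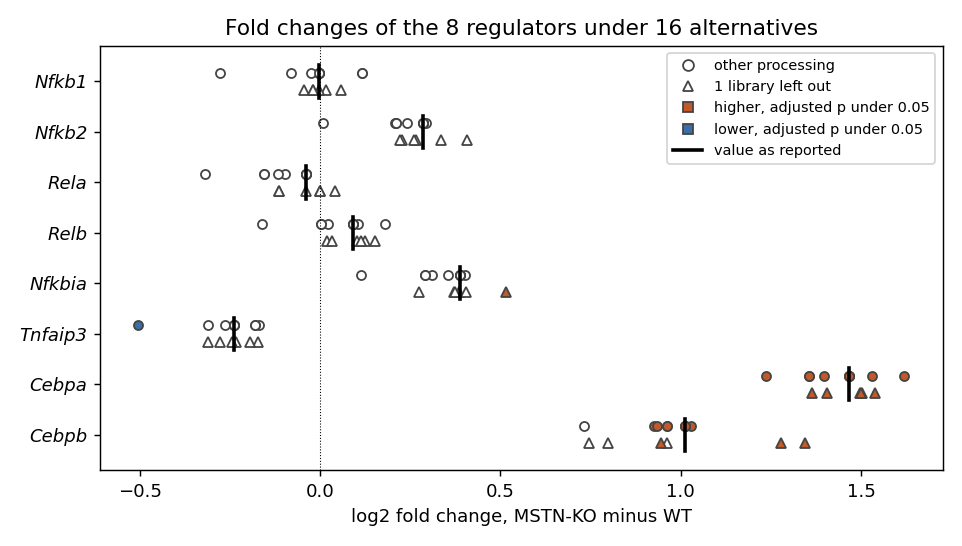
Log2 fold changes of the 8 regulators (horizontal axis, MSTN-KO minus WT) as reported (black bars), under 10 other ways of processing (circles) and with 1 library left out (triangles). Filled symbols have an adjusted p under 0.05. All symbols of *Cebpa* are filled, those of *Cebpb* are filled for some settings only, and *Nfkbia* and *Tnfaip3* are each filled once.

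FPKM is a level per length, so the regulators can be ordered within a group. In WT the order of the mean FPKM was *Rela* (46.5), *Cebpb* (44.7), *Nfkb2* (33.9), *Nfkb1* (22.7), *Nfkbia* (22.5), *Tnfaip3* (9.33), *Relb* (6.15) and *Cebpa* (5.17). The ranges of neighbouring genes overlapped between *Rela* and *Cebpb*, between *Cebpb* and *Nfkb2*, between *Nfkb1* and *Nfkbia* and between *Relb* and *Cebpa*. In MSTN-KO *Cebpb* (92.9) stood at the top with no overlap with *Rela* (45.2), and *Cebpa* (16.0) lay above *Tnfaip3* (7.73) and *Relb* (6.60), whose ranges overlapped. The range of *Nfkbia* (30.0) no longer overlapped that of *Nfkb1* (22.7). The ranges of *Rela* and *Nfkb2* (41.4), apart in WT, overlapped in MSTN-KO.

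Ratios within a library do not depend on how the library was scaled. The ratio of *Nfkbia* to *Rela* FPKM was 0.426, 0.486 and 0.556 in WT and 0.819, 0.581 and 0.605 in MSTN-KO. All MSTN-KO ratios were higher, with means of 0.489 ± 0.0652 and 0.668 ± 0.131 (SD, n = 3, two-sided exact permutation p = 0.1, the smallest that 3 libraries against 3 allow). Over the sum of the 4 subunit genes the ratio of *Nfkbia* was 0.208 in WT and 0.260 in MSTN-KO, and the groups overlapped (exact permutation p = 0.2). *Cebpb* made up 79.0% ± 8.49 of the FPKM of *Cebpa*, *Cebpb* and *Cebpg* in WT and 79.5% ± 8.80 in MSTN-KO (exact permutation p = 1). Further shares were computed after the values had been seen. *Nfkb2* held 31.0% ± 1.78 of the FPKM of the 4 subunit genes in WT and 35.7% ± 1.64 in MSTN-KO, and *Rela* held 42.5% ± 1.18 and 38.9% ± 1.72 (exact permutation p = 0.1 for each, with no overlap between groups). The ratio of *Cebpb* to *Cebpa* was 8.76 in WT and 5.94 in MSTN-KO (exact permutation p = 0.3), and *Cebpa* held 9.64% and 15.2% of the C/EBP sum (exact permutation p = 0.2). In all, 7 ratios were tested, and none could go below 0.1.

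Other genes of the pathways were read from 7 lists, of which 127 genes were in the tables and 97 were tested. Of these, 18 (18.6%) were called higher and 9 (9.28%) lower, beside 8.78% and 8.96% of all genes tested. The lists were chosen with earlier results of these data known, so these shares are a description and not a test. The counts of single lists below stand beside the same shares of all genes. Calls of both directions occurred in 6 of the 7 lists, and 0 of the 3 tested ligands was called higher. The plot of fold changes by list shows where they fell.

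**Figure D4:**
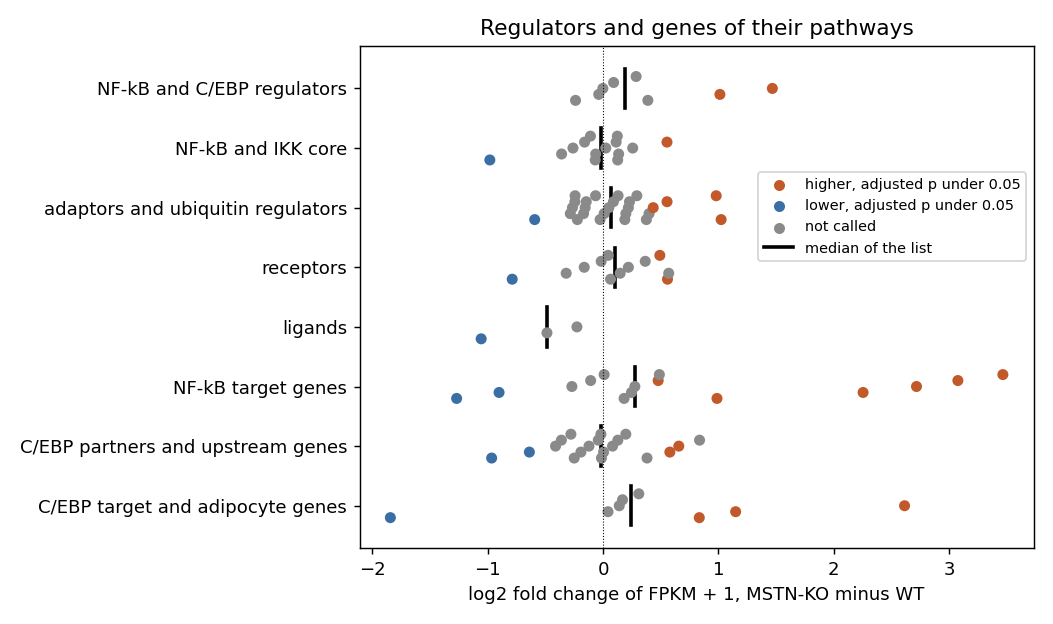
Log2 fold change of FPKM + 1 (horizontal axis, MSTN-KO minus WT) of the regulators and of the tested genes of 7 pathway lists (rows). Points are genes, coloured by their call, and black bars are the medians, from -0.49 in the ligands to 0.28 in the NF-kB target genes. The points farthest to the right are chemokine genes of the NF-kB target list, up to 3.47, and *Lpl* at 2.61.

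Most of the listed ligands that start NF-kB signalling were under 1 FPKM. Of 10 ligand genes in the tables, 7 were under 1 FPKM in every library, among them *Tnf* (at most 0.198 FPKM) and *Il1b* (at most 0.0832 FPKM). Of the 3 tested, 1 was lower. *Tnfsf12* encodes TWEAK, a cytokine that acts on muscle through the receptor Fn14. It fell from 15.3, 14.1 and 13.1 FPKM in WT to 6.83, 6.42 and 5.61 FPKM in MSTN-KO, with no overlap (log2 fold change -1.06, limma adjusted p = 2.50e-04). It shares 731 of its 1515 exonic bases with *Tnfsfm13* on the same strand, so part of its FPKM is uncertain. The gene of its receptor, *Tnfrsf12a*, was at 647 to 915 FPKM over all 6 libraries and was not called (-0.16, limma adjusted p = 0.444). It was called lower after quantile normalization (-0.39, limma adjusted p = 0.0252) and after scaling to 1000000 (-0.45, 0.0105).

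Of 12 receptors tested, 2 were higher and 1 lower, with a median log2 fold change of 0.11. *Tnfrsf1b*, a receptor of TNF, rose from 6.27 ± 0.598 to 9.23 ± 0.777 FPKM (SD, n = 3, log2 fold change 0.49, limma adjusted p = 0.0312). *Il17rc*, a receptor chain for IL-17, rose from 38.4 ± 7.06 to 56.8 ± 7.56 FPKM (0.56, limma adjusted p = 0.0258), and *Cd40* fell from 5.34 ± 1.51 to 2.71 ± 1.02 FPKM (-0.79, limma adjusted p = 0.0295). These calls were near the threshold. Those of *Tnfrsf1b* and *Il17rc* were lost without WT replicate 2 or 3 or MSTN-KO replicate 1 or 3 (limma adjusted p from 0.0668 to 0.148), and that of *Cd40* was lost without WT replicate 1 or 2 or MSTN-KO replicate 1 (from 0.0603 to 0.129). All 3 were also lost without the filter on low values (limma adjusted p = 0.0583, 0.0668 and 0.101 in the order given), and *Tnfrsf1b* and *Il17rc* also after scaling to 1000000 (0.205 and 0.177). *Cd40* was lost after quantile normalization (0.0965).

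Of 26 adaptors and ubiquitin regulators, 4 were higher and 1 lower, with a median of 0.070. *Traf1*, an adaptor gene that NF-kB induces, had 2.37, 2.72 and 3.11 FPKM in WT and 5.46, 6.20 and 8.30 FPKM in MSTN-KO (log2 fold change 1.02, limma adjusted p = 0.00155). Its groups lay well apart, and its call held under all 16 alternatives. *Traf5*, another adaptor of TNF receptors, was at 6.63 ± 1.41 FPKM in WT and 14.6 ± 5.51 FPKM in MSTN-KO (0.98, limma adjusted p = 0.0147). *Rbck1*, a subunit of the linear ubiquitin ligase complex, was at 43.4 ± 7.04 and 64.0 ± 7.35 FPKM (0.55, limma adjusted p = 0.0190), and *Tnip2*, an A20-binding inhibitor, was at 10.01 ± 1.02 and 6.28 ± 0.457 FPKM (-0.59, limma adjusted p = 0.0134). *Tradd*, the fourth gene called higher, is the death domain adaptor of the TNF receptor (0.43, limma adjusted p = 0.0432) and is named after its values were seen. Its call was lost under 11 of the 16 alternatives, with limma adjusted p up to 0.290. The calls of *Traf5* and *Tnip2* were lost without 1 library each, MSTN-KO replicate 3 (limma adjusted p = 0.0843) and WT replicate 2 (0.0787). *Traf5* was also lost without the filter on low values (0.0743) and after scaling to 1000000 (0.0604). *Rbck1* was lost without WT replicate 2 or 3 or MSTN-KO replicate 1 or 3 (from 0.0684 to 0.0799) and after scaling to 1000000 (0.137).

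In the NF-kB and IKK core, 1 of 14 tested genes was higher and 1 lower, beside 8.78% and 8.96% of all genes tested. The median of the list was -0.020. *Map3k14* encodes NIK, the kinase that starts the non-canonical pathway and the processing of the *Nfkb2* product. It had 6.18, 6.89 and 8.07 FPKM in WT and 11.3, 10.1 and 10.9 FPKM in MSTN-KO, all higher (log2 fold change 0.55, limma adjusted p = 0.0194). The call was lost without WT replicate 1 or 2 or MSTN-KO replicate 1 (limma adjusted p from 0.0569 to 0.0835) and after scaling to 1000000 (0.151). *Bcl3*, an atypical IkB that works in the nucleus, is named after its values were seen. It was low, at 1.00, 1.14 and 0.862 FPKM in WT and at 0.036 FPKM or listed at 0 in MSTN-KO (limma adjusted p = 0.00175). *Bcl3* passed the filter only through WT libraries. With the filter on the mean it was not tested, and 0 genes of this list were called lower. The IKK subunits *Chuk*, *Ikbkb* and *Ikbkg* were not called, with log2 fold changes of -0.36, -0.11 and -0.064. Without MSTN-KO replicate 2 *Chuk* was called lower (-0.55, limma adjusted p = 0.0343).

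Among 15 NF-kB target genes tested, 6 were higher and 2 lower, with a median log2 fold change of 0.28 beside -0.00078 over all genes. The 3 named genes with the largest rise encode chemokines that draw neutrophils or monocytes. *Cxcl1*, whose promoter matches are printed above, rose from 2.76, 3.83 and 3.85 FPKM in WT to 62.0, 36.1 and 49.8 FPKM in MSTN-KO (log2 fold change 3.47, limma adjusted p = 8.55e-08). *Ccl7* rose from 10.1, 8.03 and 15.7 FPKM to 125, 68.5 and 113 FPKM (3.08, limma adjusted p = 1.81e-06). *Cxcl5* rose from 1.57, 1.11 and 1.63 FPKM to 22.4, 11.6 and 12.7 FPKM (2.72, limma adjusted p = 2.41e-06). For all 3 the lowest MSTN-KO value was several times the highest WT value, and their calls held under all 16 alternatives. The other genes called higher, named after their values were seen, were *Ccl2*, a monocyte chemokine (2.25, limma adjusted p = 7.82e-06), *Csf1*, the macrophage growth factor (0.99, 0.00312), and *Tnfaip2* (0.48, 0.0323). The call of *Tnfaip2* alone among them was lost under some alternatives, with limma adjusted p of 0.0967 to 0.141 without WT replicate 2 or 3 or MSTN-KO replicate 3, 0.237 after scaling to 1000000, 0.0515 with no trend in the fit and 0.0600 with no filter on low values.

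The targets did not all move in 1 direction. *Plau*, the urokinase gene, had 128, 131 and 121 FPKM in WT and 50.9, 53.4 and 51.6 FPKM in MSTN-KO (log2 fold change -1.27, limma adjusted p = 7.67e-06). *Cx3cl1*, a membrane-bound chemokine, had 5.27 ± 0.957 and 2.35 ± 0.444 FPKM (SD, n = 3, -0.90, limma adjusted p = 0.00359). Both were lower in all MSTN-KO libraries, and both calls held under all 16 alternatives. Well-known targets *Ier3* (0.18), *Sod2* (0.25) and *Irf1* (0.28) were not called, with limma adjusted p of 0.569, 0.200 and 0.235. A further 12 target genes were under 1 FPKM in every library, among them *Il6* (at most 0.128 FPKM), *Nos2* (at most 0.159 FPKM) and *Ccl5* (at most 0.601 FPKM). Of 22 list genes looked up, all of them called, 13 had a RefSeq promoter window among those used here. In 3 of these, *Cxcl1*, *Csf1* and *Il17rc*, the window held a kB match. Windows on chromosome 8, which holds *Cx3cl1* and *Lpl*, were not used. No window was found for *Ccl7*, *Cxcl5*, *Ccl2*, *Plau*, *Cd40*, *Tnfsf12* and *Klf5*. It is therefore not shown that any of these genes lacks a kB match.

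**Figure D5:**
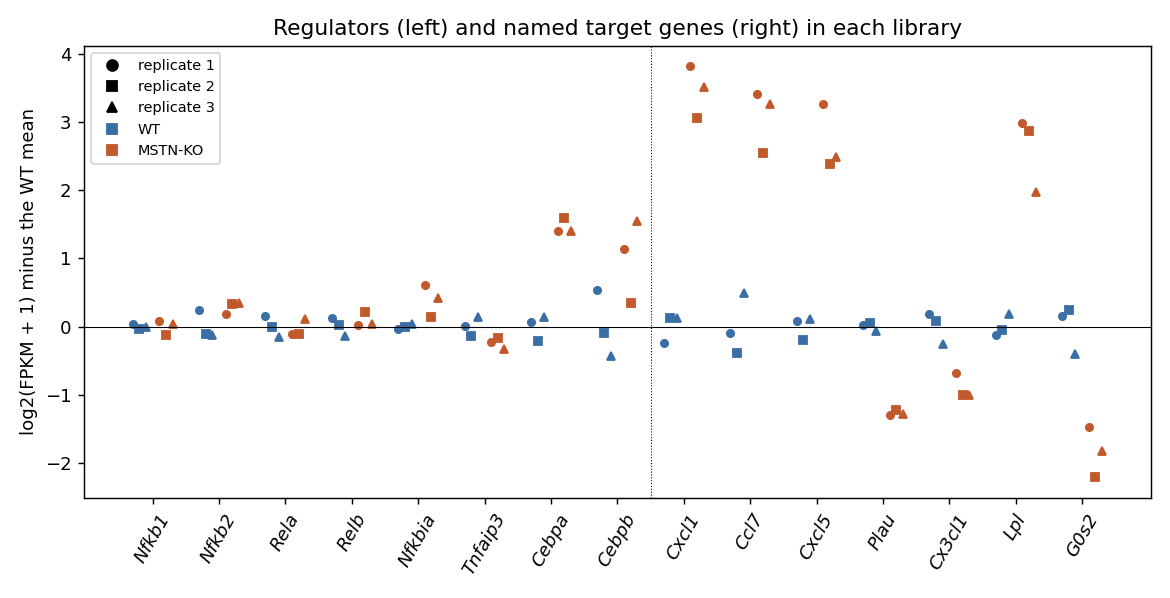
Log2(FPKM + 1) of each library minus the WT mean of the gene (vertical axis), for the 8 regulators (left of the dotted line) and the named target genes (right). Blue is WT, orange is MSTN-KO, and circles, squares and triangles are replicates 1, 2 and 3. The NF-kB subunits and inhibitors stay nearer 0, although all MSTN-KO values of *Nfkbia* lie above its WT values. *Cxcl1*, *Ccl7*, *Cxcl5* and *Lpl* lie well above 0 in the MSTN-KO libraries and *Plau*, *Cx3cl1* and *G0s2* below.

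Of 19 partners and upstream genes of C/EBP tested, 2 were higher and 2 lower, and the median was -0.019. Over all genes tested 8.78% were called higher and 8.96% lower. The higher genes belong to interleukin-6 signalling, which acts through STAT3, but 2 calls do not show a change of that pathway. *Socs3*, its feedback inhibitor, had 13.1, 11.7 and 12.8 FPKM in WT and 21.7, 19.5 and 19.8 FPKM in MSTN-KO (log2 fold change 0.66, limma adjusted p = 0.00419). *Il6ra*, the receptor chain that binds the cytokine, had 1.52 ± 0.117 and 2.79 ± 0.531 FPKM (SD, n = 3, 0.58, limma adjusted p = 0.0287), a call lost when any WT library or MSTN-KO replicate 1 was left out (limma adjusted p from 0.0566 to 0.137) and after scaling to 1000000 (0.117). *Lif*, a cytokine of the same family, had 1.96 ± 0.486 and 0.503 ± 0.0574 FPKM (-0.97, limma adjusted p = 0.00277). It passed the filter only through WT libraries. *Klf5*, a zinc finger factor that acts beside C/EBP factors in adipocytes, had 10.7 ± 1.66 and 6.48 ± 0.268 FPKM (-0.64, limma adjusted p = 0.0105). *Stat3* itself (-0.28) and *Il6st*, the shared receptor chain (-0.25), were not called, and *Stat3* was called lower after scaling to 1000000 only (-0.56, limma adjusted p = 0.0256).

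Of 8 C/EBP target and adipocyte genes tested, 3 were higher and 1 lower, with a median of 0.24. *Lpl*, the lipoprotein lipase gene, had 1.91, 2.05 and 2.59 FPKM in WT and 24.2, 22.3 and 11.5 FPKM in MSTN-KO (log2 fold change 2.61, limma adjusted p = 6.89e-06). *G0s2*, which encodes an inhibitor of the lipase ATGL, went the other way, from 15.3, 16.4 and 10.03 FPKM to 4.23, 2.14 and 3.11 FPKM (-1.84, limma adjusted p = 7.51e-05). Both calls held under all 16 alternatives. *Fabp4* (0.83, limma adjusted p = 0.00924) and *Orm1* (1.15, 0.00157) were also called higher, are named after their values were seen and reached at most 1.76 and 1.94 FPKM. *Fabp4* reached 1 FPKM in MSTN-KO libraries only. Both genes passed the filter because their highest library reached 1 FPKM, while their mean over the libraries did not. With the filter on the mean they were not tested, and 1 gene of this list was called higher. *Pparg*, the partner of C/EBP alpha in adipocytes, was at 5.36 to 6.23 FPKM in WT and 5.82 to 8.22 FPKM in MSTN-KO and was not called (0.31, limma adjusted p = 0.200). Of 6 adipocyte markers 2 were in the tables, their sum was 0.147 to 0.324 FPKM in WT and 0.919 to 1.76 FPKM in MSTN-KO, and *Plin1* was at most 0.064 FPKM.

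The genes with profiles most like that of *Cebpa* were sought over the 6 libraries among 10836 other genes. The closest were *Magea8*, *Fam20a* and *S1pr1*, with root mean square differences of 0.049, 0.060 and 0.067 between the centred log2(FPKM + 1) values. Their log2 fold changes lay between 1.41 and 1.55, so the likeness mainly repeats the difference between the groups. *Magea8* passed the filter only through MSTN-KO libraries, and was at 0.419 to 0.765 FPKM in WT.

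Other differences moved with the groups. All 17 tested muscle differentiation genes, a list outside the 7 above, were lower in MSTN-KO, with a median log2 fold change of -2.61. Their FPKM summed to 1522, 1544 and 672 in the WT replicates and to 193, 246 and 268 in the MSTN-KO replicates, so WT replicate 3 stood below the other WT libraries. The largest falls were those of *Mylpf* (-4.02), *Tnni1* (-3.76) and *Myl1* (-3.63), which encode sarcomere proteins. The part of this difference in the *Cebpa*, *Cebpb* and chemokine results was not tested. Fibroblast markers, 4 of 6 in the tables, summed to 183 to 256 FPKM in WT and 321 to 386 FPKM in MSTN-KO, mainly through *Col3a1* (log2 fold change 0.68, limma adjusted p = 0.00765, lost after quantile normalization at 0.0612 and scaling to 1000000 at 0.102). The markers did not move together, since of 3 tested 1 was called higher and 1 lower. Their part was not tested either. Macrophage markers, 4 of 8 in the tables, summed to 7.17 to 9.28 FPKM in WT and 7.27 to 9.78 FPKM in MSTN-KO. *Csf1r* and *Aif1* were at most 0.062 and 0.082 FPKM. The other 2 held nearly all of the sum, were tested, and were not called. The 4 endothelial markers in the tables summed to at most 0.167 FPKM in any library. In bulk RNA, a change in the share of a cell state and a change in RNA per cell cannot be told apart.

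The MSTN-KO libraries also differed among themselves. Of the 20 regulators and pathway genes called higher, 14 (70.0%) were lowest in replicate 2 within the MSTN-KO group, among them *Cebpb*, *Traf5*, *Cxcl1* and *Ccl7*. *Cebpa* was highest in that library. Over all 952 genes called higher, replicate 2 was the lowest MSTN-KO library for 70.0%, and over all genes tested for 39.2%, so the share among the pathway genes equalled that of called genes in general. This count was made after the values had been seen.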

How the data were processed

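RNA-seq values of C2C12 cells, 3 WT libraries and 3 of MSTN-KO, were analysed, grouped by the genotype in the labels. Sequencing was done on an Illumina HiSeq, and the authors deposited FPKM per gene in 1 file a library. The submitters' processing notes name Bowtie 0.12.2 and mm8 without their roles. The annotation, strand setting and gene filter are not given in the sources used here. FPKM is relative to all fragments of a library, so highly expressed genes lower the values of others.

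Symbols, positions and lengths came from GENCODE M21 (GRCm38), which matched 14454 of 14548 gene identifiers. Promoters came from RefSeq (GRCm38.p6), were scanned on both strands, and none of their coordinates entered a value. For log2(FPKM + 1) values, limma 3.58.1 was run in R 4.3.3 (group coefficient, eBayes with trend, intervals at 95%) over all genes reaching 1 FPKM in any library, with Benjamini-Hochberg adjustment over all of them. Fold changes on this scale understate those of low genes. The fit was tested on simulated data. Ratios were tested by two-sided exact permutation, and the C/EBP share was computed without *Cebpd*, for which no value was at hand.

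The members and gene lists were chosen with earlier results of these data known. The named genes are all members, for each list up to 3 largest rises and falls among genes that were called, did not overlap between groups and averaged 1 FPKM or more, and the 3 genes most like the member with the largest change. The alternatives changed the pseudocount (0.1), the filter (none, or on the mean), the trend (none) or the scaling (quantile, percentile 75, sum of 1000000), or added a length and GC correction with mgcv 1.9.3, or a replicate block with and without it, or left out each library. The remaining steps ran in Python 3.11.15 (pandas 2.3.3, numpy 2.4.6, matplotlib 3.10.9, scipy 1.17.1).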

Additional observations from a re-analysis of the deposited data

How the results depend on the processing

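The count of regulators called higher was 2, and it was 1 without a filter on low values and after scaling to 1000000, where 1 regulator, *Tnfaip3*, was called lower. The number of upregulated DEGs among the regulators fell from 2 to 1 with quantile normalization, scaling by the percentile 75, scaling to 1000000, and the length and GC correction with or without the replicate block. In all of these *Cebpa* remained past the threshold. With single libraries left out, 1 to 3 regulators were higher, 0 were lower, and 1 to 2 were upregulated and 0 downregulated DEGs. Over the pathway lists 10 genes were higher and 14 lower after scaling to 1000000, against 18 and 9 of 97 tested. Over all 10837 genes that scaling gave 350 higher and 2367 lower, against 952 and 971, so these counts hold the same shift. With single libraries left out 11 to 21 pathway genes were higher and 7 to 11 lower. With the filter on the mean 16 pathway genes were higher and 8 lower. Over all genes, leaving out single libraries gave the fewest calls without WT replicate 2 (423 higher and 606 lower) and the most without MSTN-KO replicate 2 (1184 and 1251). The difference in the ratio of *Nfkbia* to *Rela* was 0.104 to 0.223 with single libraries left out, that of *Nfkbia* to the subunit sum 0.0255 to 0.0727, and that of the *Cebpb* share -3.86 to 5.48 percentage points. Genes near 0 changed sign, *Relb* to -0.16 after scaling to 1000000 and *Nfkb1* to 0.12 with the length and GC correction, with or without the block. With single libraries left out *Nfkb1* ran from -0.045 to 0.059 and turned positive without WT replicate 1 or MSTN-KO replicate 2, and *Rela* ran from -0.11 to 0.041 and turned positive without WT replicate 1, MSTN-KO replicate 1 or MSTN-KO replicate 2. Among other named genes *Tmem189* turned to -0.035 with quantile normalization and -0.14 after scaling to 1000000, *Sod2* to -0.032 and *Ier3* to -0.10 after that scaling, and *Ikbkg* to 0.046 with the length and GC correction, with or without the block. Without MSTN-KO replicate 1 *Ier3* and *Ikbkg* also changed sign, with ranges of -0.092 to 0.41 and -0.26 to 0.11 over the single libraries left out. The cause was not tested. With motifs of 1 more N (GGGNNTNNCC and TTNCNNAA), 5 regulators had a kB match and 2 a C/EBP match, against 18.4% and 40.7% of all windows.

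Same-numbered libraries of the groups did not deviate together (r = -0.0153, -0.128 and -0.142 across genes), so the numbers give no pairing. With the replicate block 2 regulators were higher and 0 lower, with 939 genes higher and 1001 lower over all genes. The limma adjusted p was then 0.000573 for *Cebpb*, against 0.0226 without the block, and 0.0547 for *Tnfrsf1b*. Because the numbers give no pairing, the smaller value of *Cebpb* adds no support to its call. Block and length and GC correction together gave 2 regulators higher, and lost *Map3k14* (limma adjusted p = 0.0642) and *Cd40* (0.0786). Without counts, counting error could not be given for genes near 1 FPKM.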
